A study of Mus musculus with 8 samples.

Results

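RNA bound to HA-tagged ribosomes was sequenced from synaptosomes of mouse cerebral cortex at postnatal day 15, and 9 transcripts of excitatory (glutamatergic) neurons were followed in it: Slc17a7, Slc17a6, Camk2a, Neurod6, Neurod2, Tbr1, Nrgn, Rorb and Cux2. They were chosen by gene symbol, each had 1 entry among the 56576 genes listed, and all 9 passed the filter on low values that left 31171 genes for testing. The tag sits on the ribosomal protein Rpl22 and is switched on by Lhx6-Cre, a Cre line of the lineage that leaves the medial ganglionic eminence (MGE) and preoptic area and becomes cortical interneurons. Reads of these 9 genes were therefore followed as a measure of carry-over from cells without the tag. Controls were Lhx6-Cre;ErbB4+/+;Rpl22HA/HA (replicates 1, 3, 4 and 5) and Erbb4 conditional mutants were Lhx6-Cre;ErbB4F/F;Rpl22HA/HA (replicates 2, 3, 4 and 5), with 4 libraries in each genotype. Both genotypes carried the Cre and the tagged ribosome, and in mutants the receptor tyrosine kinase Erbb4 was deleted in the Lhx6 lineage. All 8 libraries were pulldowns, so each value is a level within the pulldown and not an enrichment over the starting synaptosomes, which were not analysed here. The study's methods describe its replicates as samples from separate brains and litters.

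Cortical excitatory neurons load glutamate into synaptic vesicles with vesicular transporters, and they arise from dorsal progenitors rather than from the ganglionic eminences that give rise to cortical interneurons. Their identity is set by transcription factors, of which Neurod6 and Neurod2 are shared by many pyramidal neurons while Tbr1, Rorb and Cux2 mark particular layers. Some of their mRNAs, Camk2a and Nrgn among them, are carried into dendrites, close to the synapses that a synaptosome preparation collects.

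Neurod6 and Neurod2 encode basic helix-loop-helix factors, a family that binds the E-box CANNTG, and their control and mutant libraries did not overlap, which was so of 4.93% of all genes tested. Their promoters are shown for that reason, most of each window lying upstream of the RefSeq start, 5′ to 3′ on the strand of the gene, with each E-box in capitals (RefSeq, GRCm38.p6). Neurod6 is at chr6:55681214-55681513 and Neurod2 at chr11:98329596-98329895, both on the minus strand. The deposited Neurod2 entry begins on that strand at 98329777, inside its window, so by that start most of the window is not upstream.
Neurod6: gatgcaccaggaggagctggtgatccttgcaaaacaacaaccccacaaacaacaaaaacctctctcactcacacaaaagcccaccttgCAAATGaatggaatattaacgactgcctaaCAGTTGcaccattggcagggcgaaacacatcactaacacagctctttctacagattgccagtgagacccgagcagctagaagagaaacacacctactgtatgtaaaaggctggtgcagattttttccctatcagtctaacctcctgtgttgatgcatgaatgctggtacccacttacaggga
Neurod2: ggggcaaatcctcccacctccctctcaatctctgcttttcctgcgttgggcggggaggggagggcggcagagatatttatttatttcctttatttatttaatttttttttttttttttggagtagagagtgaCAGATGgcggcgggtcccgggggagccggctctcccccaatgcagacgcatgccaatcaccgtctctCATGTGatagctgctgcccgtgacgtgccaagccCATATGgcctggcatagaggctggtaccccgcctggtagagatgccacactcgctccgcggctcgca
The Neurod6 window held 2 matches to CANNTG and the Neurod2 window held 3, with both strands searched. At least 1 match was found in 72.3% of all 32851 promoter windows of this length. CAGATG, a form of CANNTG, was found once in the Neurod2 window and not in the Neurod6 window, and 17.2% of all windows held it on either strand. A match describes letters in the window and not a bound site.

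The libraries held 51010687 to 80226984 reads on genes in controls and 58967504 to 74609576 in mutants. Erbb4, the targeted gene, had 1640, 5377, 4306 and 3034 normalized counts (reads on the gene divided by a size factor of the library) in control replicates 1, 3, 4 and 5, and 1711, 1648, 1233 and 1048 in mutant replicates 2, 3, 4 and 5. The library labelled control replicate 1 was thus within the range of the mutants for Erbb4. All 15 markers of MGE-derived interneurons were detected in every library, but their summed normalized count ran from 158610 to 809460 in controls and from 68484 to 345220 in mutants, and it was lowest in control replicate 5 and in mutant replicates 4 and 5. In these pulldowns, fewer cells of a type, less RNA per cell and lower recovery of tagged ribosomes cannot be told apart. Control replicate 1 also stood apart by transcript length, with genes in the shortest tertile at a median log2 difference of 0.49 from the other controls and genes in the longest tertile at -0.45, over 13292 genes. Erbb4, with a transcript of 12037 bases, is in the longest tertile, and the part of length in its low value in that library was not tested.

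Compared per length of transcript, Slc17a7 was among the most abundant transcripts of the pulldown. This gene (chromosome 7 of mm10, 45163921 to 45176138) encodes VGLUT1, the main vesicular glutamate transporter of cortical pyramidal neurons. It stood at 504 ± 89.5 RPKM (reads per kilobase of transcript per 1e+06 reads) in controls (SD, n = 4) and at 515 ± 68.0 in mutants (SD, n = 4), which was rank 38 of 19161 genes over the 8 libraries. Reads were counted on constitutive regions only. Dividing by the whole transcript can thus understate a level, unequally between genes, and the size of this was not tested. For comparison on the same per-length scale, Gad1, which makes GABA, was at 18.6 ± 8.29 in controls and 9.99 ± 4.30 in mutants (SD, n = 4). The neuropeptide gene Sst was at 3120 ± 2371 in controls (SD, n = 4). Another interneuron marker, Slc32a1, was at 107 ± 51.8 in controls and 59.2 ± 44.7 in mutants (SD, n = 4), so Gad1 does not stand for interneuron genes in general.

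The other members followed at lower levels per length, some with overlapping libraries. Nrgn, which encodes the postsynaptic calmodulin-binding protein neurogranin, was next at 229 ± 105 in controls and 153 ± 24.6 in mutants (SD, n = 4). Camk2a, the alpha subunit of the calcium and calmodulin-dependent kinase of excitatory synapses, followed at 54.1 ± 12.3 and 54.6 ± 7.89. Neurod2 (10.9 ± 1.86 in controls) and Tbr1 (9.93 ± 1.16), the latter a transcription factor of deep-layer neurons, could not be ordered, as their libraries overlapped in both genotypes. Neurod6 was at 5.44 ± 0.76 in controls and lay below every Tbr1 library of its genotype. Slc17a6, which encodes VGLUT2, the transporter of thalamic and other subcortical neurons, was at 2.44 ± 0.62 and overlapped Cux2 at 1.87 ± 1.15. Rorb, a nuclear receptor of layer 4, was the lowest at 0.611 ± 0.16 and overlapped Cux2, an upper-layer homeobox factor, in controls but not in mutants. Using the union of exons in place of the longest transcript kept this order. Neither length is that of the constitutive regions on which reads were counted, so this does not check for that mismatch. The members therefore ranged from a transcript above 99.8% of the 19161 genes to Rorb, above 32.7% of them.

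**Figure D1:**
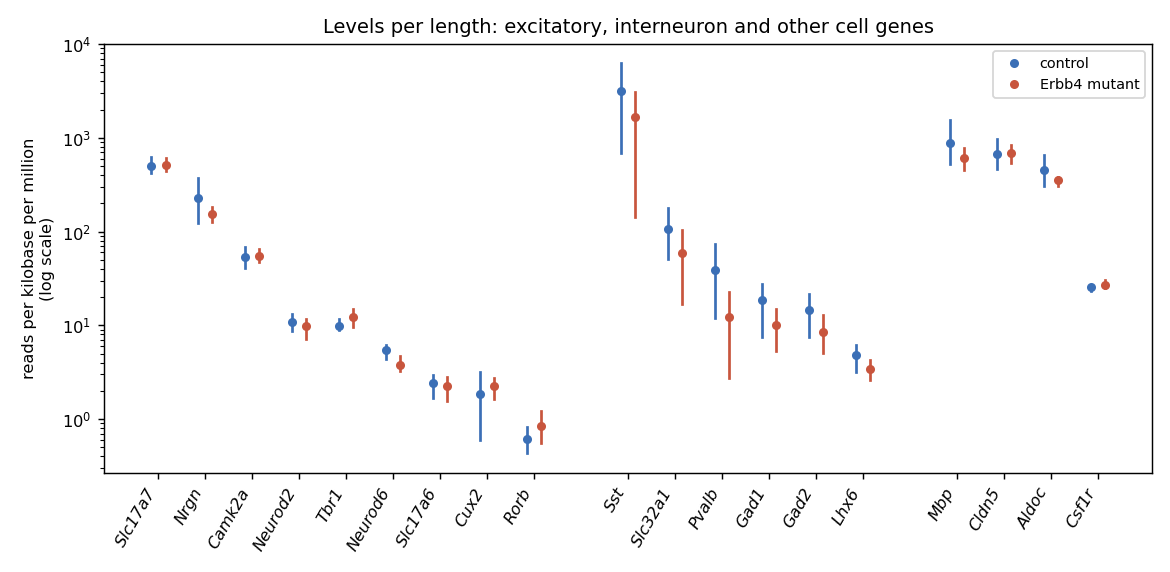
Levels per length of the 9 excitatory neuron transcripts (left), 6 interneuron genes (middle) and 4 genes of other cells (right), in RPKM on a log axis, where points are genotype means and bars run from the lowest to the highest of 4 libraries. Slc17a7 sits at 504 in controls, above Gad1 at 18.6 and Slc32a1 at 107 and below Sst at 3120, and the interneuron genes have longer bars than most of the excitatory ones.

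Some counts may hold reads of other genes, because the library kit as named does not mark strand. Slc17a7, Neurod6, Neurod2 and Nrgn overlapped no other listed gene. Rorb overlapped 5 unnamed entries with means of 69.3 to 532 normalized counts, a size like its own. Cux2 overlapped Sh2b3, which had a mean of 3981, and Tbr1 overlapped an unnamed entry with a mean of 206. Values of Rorb and Cux2 are uncertain to that extent.

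As a share of the library, the 9 transcripts together took 0.214, 0.213, 0.211 and 0.271% of reads on genes in control replicates 1, 3, 4 and 5, and 0.194, 0.210, 0.217 and 0.261% in mutant replicates 2, 3, 4 and 5. Replicate 5 was the highest of each genotype, and the genotypes overlapped. Slc17a7 alone made up 60.0 to 74.4% of the members' reads, and Slc17a7, Nrgn and Camk2a together made up 94.2 to 95.3%, so the summed value is largely a measure of these 3 genes. The 15 interneuron markers took 0.540, 0.983, 0.530 and 0.251% of reads in the controls and 0.534, 0.531, 0.181 and 0.117% in the mutants. The members' summed normalized count differed by 1.42 times between the highest and the lowest library, while that of the interneuron markers differed by 11.8 times. The marker sum is weighted toward its most abundant genes. Sst alone had 367992 normalized counts in control replicate 3, where the sum was 809460, and differed by 61.7 times between libraries. The range of the sum is therefore not that of the 15 markers as a set.

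**Figure D2:**
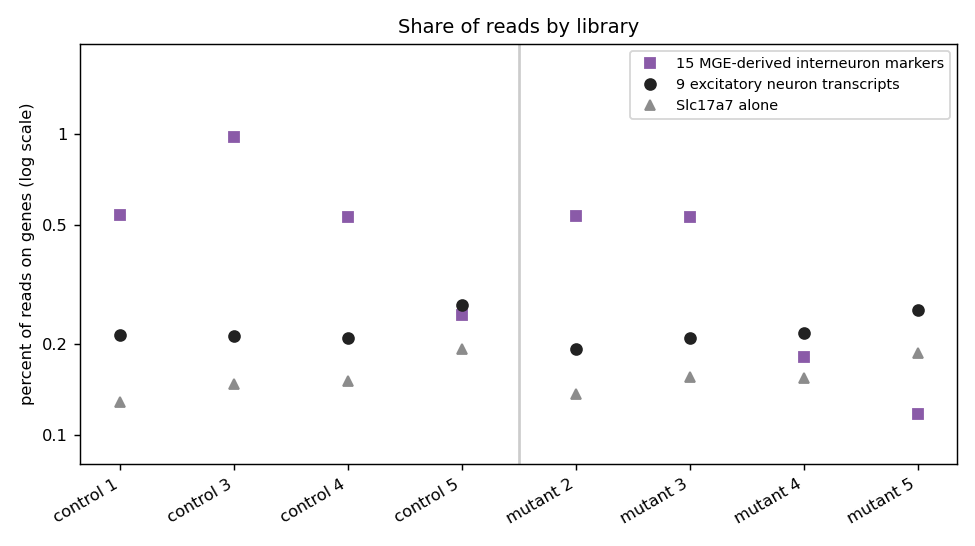
Percent of reads on genes (log axis) taken in each of the 8 libraries by the 9 excitatory neuron transcripts, by Slc17a7 alone and by the 15 MGE-derived interneuron markers. The excitatory share stays between 0.194 and 0.271%, while the marker share runs from 0.117 to 0.983% and falls below the excitatory share in control replicate 5 and in mutant replicates 4 and 5.

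Set against the interneuron markers of the same library, the members' summed count was 0.396, 0.217, 0.397 and 1.08 times theirs in control replicates 1, 3, 4 and 5, and 0.362, 0.395, 1.20 and 2.23 times in mutant replicates 2, 3, 4 and 5. The ratio was high in the 3 libraries with the fewest marker reads, of which 1 was a control. The mean log2 ratio was -1.19 ± 0.96 in controls and -0.35 ± 1.27 in mutants (SD, n = 4), a difference of 0.85 that lay within the spread of either genotype. With every gene weighted equally, as the mean of log2 counts, members minus markers was -1.08 ± 0.67 in controls and -0.37 ± 0.87 in mutants (SD, n = 4). That difference was 0.70, over the SD of the controls and under that of the mutants. Slc17a7 counts were 14.9 to 71.0 times those of Gad1 in controls and 25.1 to 96.8 times in mutants, not corrected for length. The mean log2 of this ratio was 4.66 ± 1.03 in controls and 5.56 ± 0.83 in mutants (SD, n = 4), and the difference of 0.90 gave p = 0.23 in a two-sided exact permutation test, where 4 libraries against 4 allow no p under 0.029. The genotypes overlapped, and the difference was under the SD of the controls and over that of the mutants. These ratios do not depend on how libraries are scaled to each other.

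Slc17a7 had 92440, 121394, 100411 and 122229 normalized counts in control replicates 1, 3, 4 and 5, and 87106, 101436, 95297 and 109409 in mutant replicates 2, 3, 4 and 5. Mutant replicate 2 was below the lowest control, and the other mutant libraries were within the control range. Its log2 fold change (mutant over control, on log2 of the normalized count plus 1) was -0.15 (standard error 0.25), with a 95% interval of -0.69 to 0.40 and an adjusted p of 0.85 by limma with Benjamini-Hochberg adjustment. Slc17a6 had 870, 575, 597 and 779 normalized counts in controls and 409, 703, 512 and 690 in mutants, which overlapped, and its log2 fold change was -0.30 (standard error 0.27). Slc17a7 counts were 106 to 211 times those of Slc17a6 in controls and 144 to 213 times in mutants, and these ranges overlapped.

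By limma, Neurod6 was the member called lower in mutants at the study's thresholds (1.5-fold or more, with p no higher than 0.05 before adjustment). The study applied these thresholds to DESeq2, which here called Nrgn as well as Neurod6. The Neurod6 gene lies on chromosome 6 of mm10, 55677818 to 55681264. It had 870, 1092, 625 and 761 normalized counts in control replicates 1, 3, 4 and 5, and 445, 489, 493 and 595 in mutant replicates 2, 3, 4 and 5. Every mutant library was below every control library, with 595 against 625 as the nearest pair. The log2 fold change was -0.70 (standard error 0.25, 95% interval -1.25 to -0.16), with an unadjusted p of 0.0157 and an adjusted p of 0.58 by limma. It thus did not pass an adjusted p of 0.05. Without the library labelled control replicate 1 the value was -0.67 (unadjusted limma p of 0.0271), and without control replicate 3 it was -0.57 (unadjusted limma p of 0.0482) and fell short of the fold threshold. The call also ended with scaling to library totals (-0.52, unadjusted limma p of 0.0518), with library weights (-0.50) and with a replicate block, in which the number is a factor (-0.62, unadjusted limma p of 0.0511). The direction turned to 0.18 when libraries were centred on the interneuron markers, a scaling that put the median of all genes at 0.94.

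As a share of Slc17a7 counts, a measure chosen after the values were seen, Neurod6 was at 0.941, 0.900, 0.622 and 0.622% in control replicates 1, 3, 4 and 5. In mutant replicates 2, 3, 4 and 5 it was at 0.511, 0.482, 0.517 and 0.544%. The genotypes did not overlap, and the mutant libraries spread less than the controls. The share reuses the Neurod6 counts, which already did not overlap, and divides them by a gene that differed by only 1.40 times between libraries. It is therefore not a separate observation, and no share of all genes was computed for such a ratio.

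Neurod2, a close relative of Neurod6 in the same lineage, showed a smaller difference. It (chromosome 11 of mm10, 98325417 to 98329777) had 2453, 2251, 2259 and 2628 normalized counts in controls and 1909, 1478, 2204 and 2143 in mutants. The genotypes did not overlap, but the gap between 2204 and 2251 was small beside the spread among the mutants. The log2 fold change was -0.32 (standard error 0.19), with a limma p of 0.119, so Neurod2 was not called. Tbr1 had 2746, 2896, 2574 and 2905 normalized counts in controls and 2450, 3355, 2893 and 3474 in mutants, and its log2 fold change of 0.12 (standard error 0.18) was smaller than its error.

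Of the 9 members, 1 was called lower and 0 were called higher, read against 3.17% and 3.98% of all genes tested, and 2 of 9 had mutant libraries all below the controls, read against 2.17% of all genes. In 0 of 9 were the mutant libraries all above the controls, read against 2.76%. In either direction, 7.15% of genes were called (988 lower and 1241 higher), 0.0449% passed an adjusted p of 0.05 and no member did so (by unadjusted limma p under 0.05, 1 member passed, and edgeR and DESeq2 each called 2). The split over all genes moved to 417 lower and 2263 higher when libraries were scaled to their totals, and to 38 lower and 4259 higher when they were centred on the interneuron markers.

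**Figure D3:**
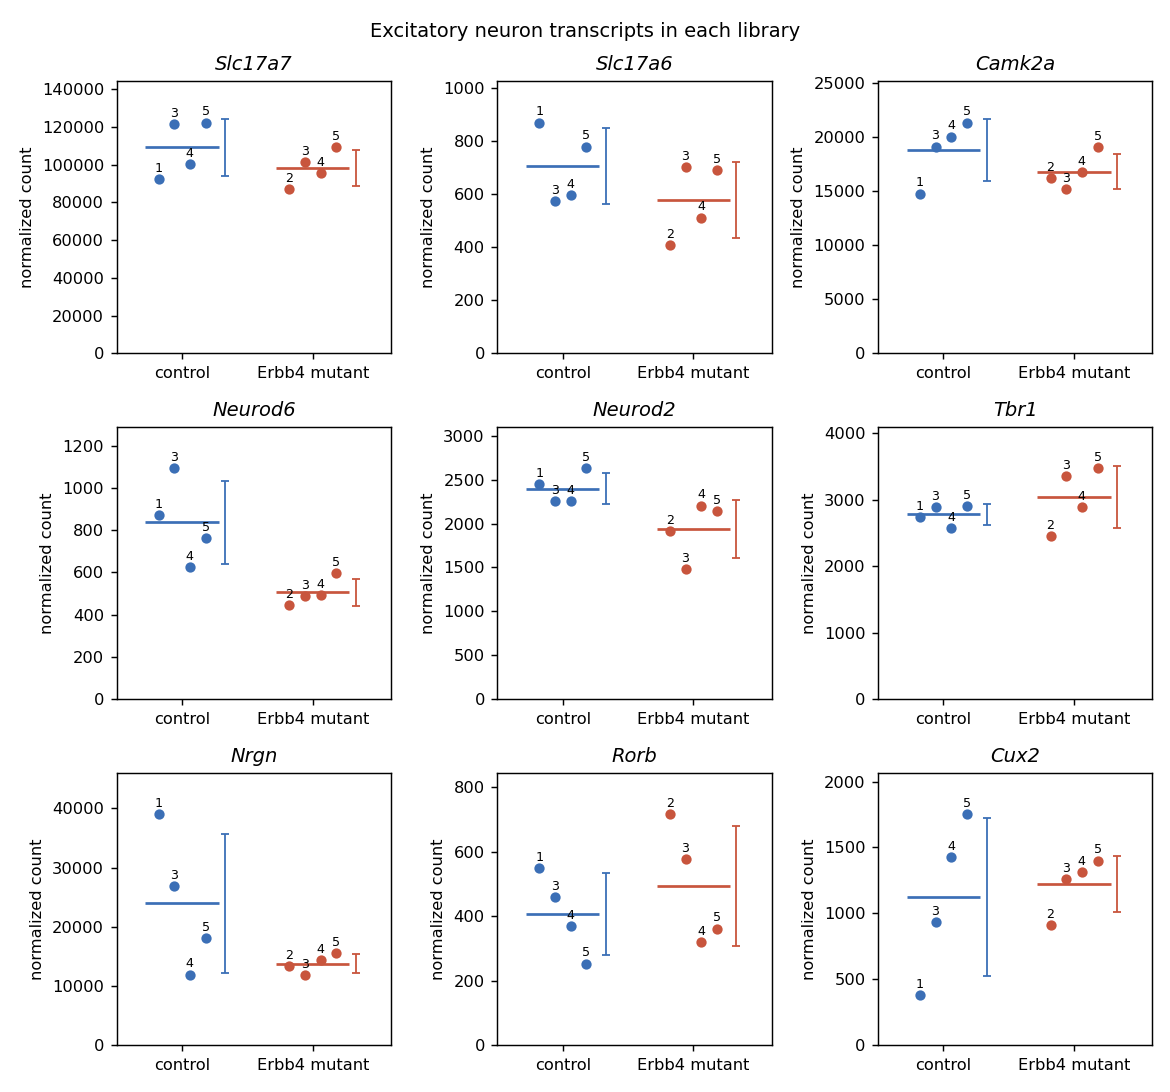
Normalized counts of each excitatory neuron transcript in 4 control and 4 Erbb4 mutant libraries, with replicate numbers, genotype means (horizontal lines) and SD (bars), on axes that start at 0. Neurod6 and Neurod2 show no overlap between genotypes, the controls of Nrgn and Cux2 spread widely, and control replicate 1 is the highest Nrgn and the lowest Cux2 library.

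The members that are carried into dendrites differed from each other in spread. Camk2a had 14759, 19115, 20022 and 21329 normalized counts in controls and 16172, 15211, 16753 and 19032 in mutants, and the genotypes overlapped. Its log2 fold change was -0.15 (standard error 0.19). Nrgn (chromosome 9 of mm10, 37544493 to 37552745) had 39027, 26803, 11902 and 18081 in controls and 13333, 11821, 14339 and 15582 in mutants. Control replicate 1 and control replicate 3 were far above the rest, while the other controls were like the mutants. The log2 fold change of Nrgn was -0.67 (standard error 0.33) with a limma p of 0.0648, so it was not called. It was called without control replicate 4 (-0.96) and by edgeR (-0.77) and DESeq2 (-0.78), but was at -0.39 without control replicate 1 (unadjusted limma p of 0.176), -0.22 with library weights and -0.38 with the replicate block.

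The layer markers Rorb and Cux2 were low and variable. Rorb had 548, 458, 368 and 252 normalized counts in controls and 716, 576, 320 and 361 in mutants. The genotypes overlapped and the log2 fold change was 0.26 (standard error 0.35). Cux2 had 376, 934, 1429 and 1753 in controls and 911, 1256, 1310 and 1399 in mutants. Its lowest value was in control replicate 1, and the log2 fold change of 0.31 (standard error 0.42) turned to -0.14 without that library.

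The members' deviations in control replicate 1 are given beside their transcript lengths. Nrgn, with a transcript of 1453 bases in the shortest tertile of genes, was 1.12 above the other controls on the log2 scale in that library, and Cux2, with 8784 bases in the longest tertile, was 1.82 below them (a difference of -1.82). Camk2a, with 4970 bases, was at -0.45. Rorb, with 9293 bases in the longest tertile, was above the other controls at 0.65, as was Slc17a6, with 4137 bases in the middle tertile, at 0.43. Neurod6, with 2150 bases in the shortest tertile, was at 0.11. The part of transcript length in the genotype values of Nrgn and Cux2 was not tested. The summed oligodendrocyte markers were also highest in that library, at 659870 normalized counts against 195280 to 352720 in the others, and their part was not tested either.

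**Figure D4:**
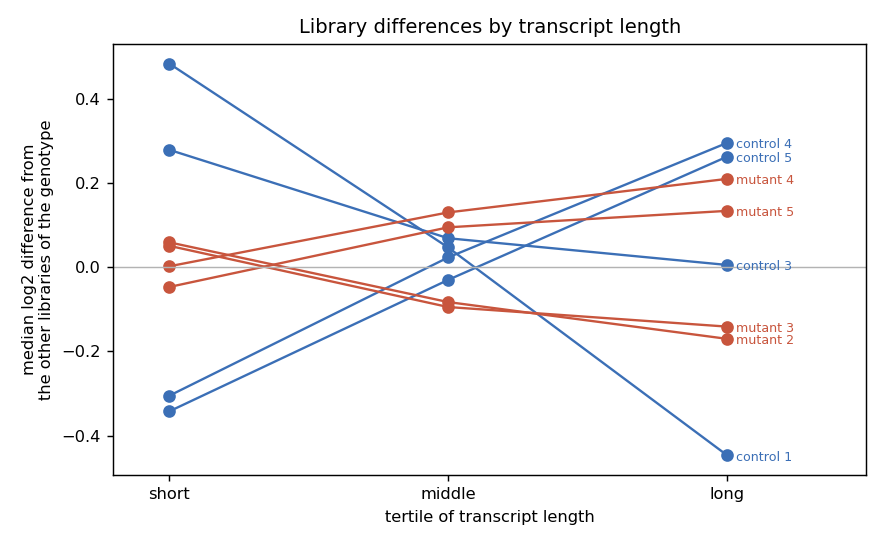
Median log2 difference of each library from the other libraries of its genotype for genes in the shortest, middle and longest tertile by transcript length. Control replicate 1 runs from 0.49 in the shortest tertile to -0.45 in the longest, control replicates 4 and 5 run the other way, and the mutant libraries stay within -0.17 to 0.21.

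Between the highest and the lowest of the 8 libraries, member counts differed by a median of 2.13 times, from 1.40 times for Slc17a7 to 4.66 times for Cux2. Across the 18817 genes with a mean of at least 100 the median was 2.75 times. Slc17a7, Tbr1 (1.42 times) and Camk2a (1.45 times) were among the steadiest of these genes, since only 2.57, 2.81 and 3.48% of them differed by less. The comparison was not matched for abundance, and low counts vary more by sampling. The interneuron markers had a median of 6.01 times and reached 61.7 times. Nrgn at 3.30 times and Rorb at 2.84 times were near or above the median of all genes.

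In all, 6 members had a log2 fold change below 0 and 3 above 0 at the deposited scaling, but 4 were below and 5 above after scaling to library totals, and all 9 were above 0 when libraries were centred on the interneuron markers. The median of all genes moved with these scalings, from 0.06 to 0.24 and 0.94. The members' median was below it each time, at -0.15, 0.029 and 0.73. For the 15 interneuron markers the median was -0.93 at the deposited scaling, with 4 called lower (Pvalb, Gad1, Gad2 and Kcnc1) and 0 higher, read against 3.17 and 3.98% of all genes tested. The calls of Gad1 and Gad2 held in 9 and 10 of 21 alternatives and those of Pvalb and Kcnc1 in 15 and 19. Gad1, Gad2 and Pvalb were not called without control replicate 1 (-0.92, -0.97 and -1.89) or without control replicate 3 (-0.73, -0.62 and -1.60), and scaling to library totals ended the calls of Gad1 (-0.86) and Gad2 (-0.74).

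A further list of 22 glutamatergic genes was described beside the members, of which 21 were found and tested. Of these, 1 was called lower and 1 higher, read against 3.17% and 3.98% of all genes tested. In the list, 10 were below 0 and 11 above, and the median log2 fold change was 0.01. Cplx3, a complexin of subplate neurons, had 1723, 1005, 878 and 762 normalized counts in controls and 651, 578, 531 and 572 in mutants. All mutant libraries were below the controls, and the log2 fold change was -0.83 (standard error 0.27, unadjusted limma p of 0.0113, adjusted p of 0.58). It was 0.048 when libraries were centred on the interneuron markers, where the median of all genes was 0.94.

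**Figure D5:**
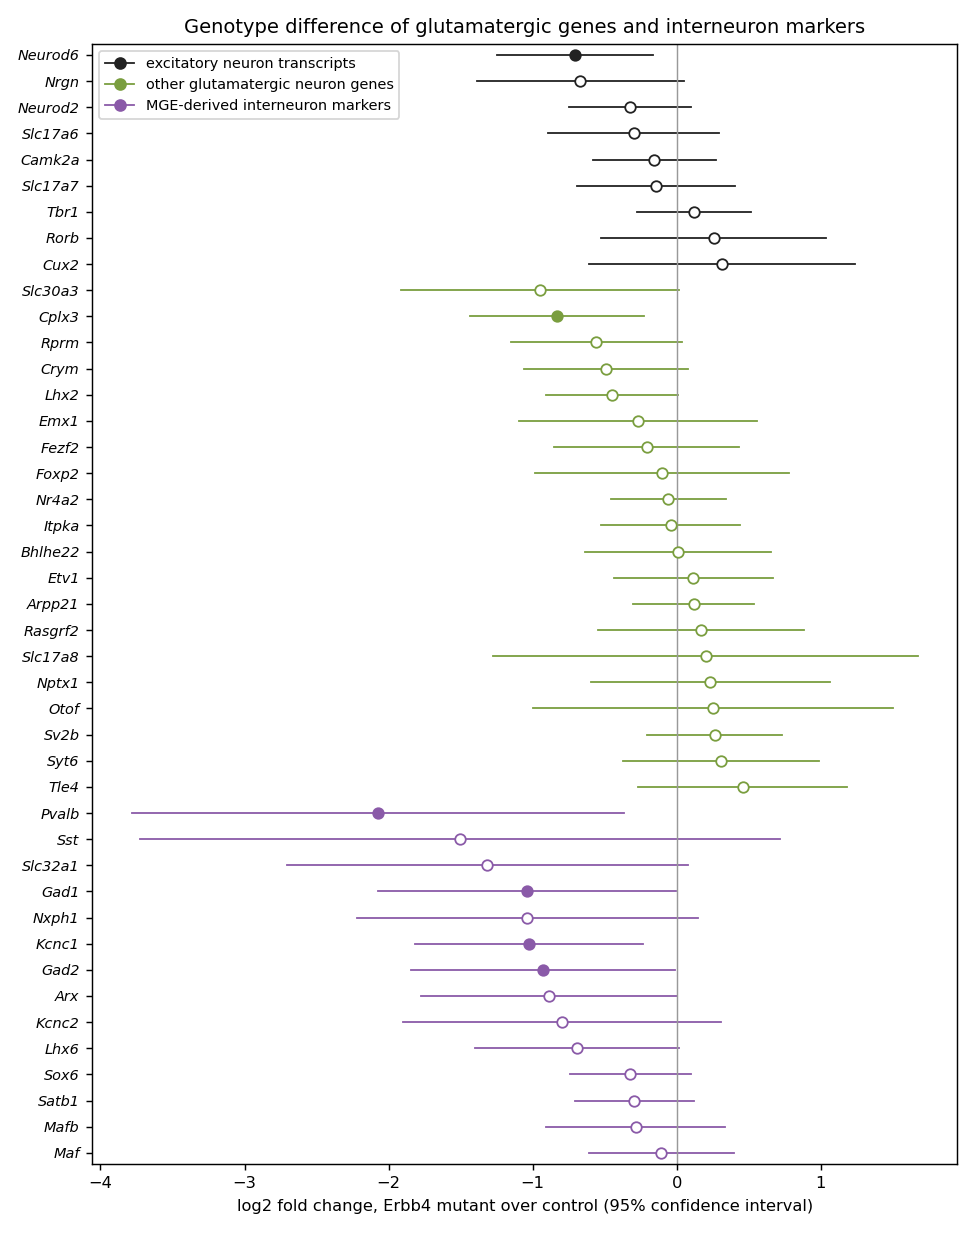
Log2 fold change (mutant over control) with its 95% confidence interval for the 9 excitatory neuron transcripts, 20 other glutamatergic genes and 14 interneuron markers, where filled points were called at the study's thresholds. Neurod6 is the called member at -0.70, Cplx3 is called lower at -0.83, and the interneuron markers lie below 0.

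Slc17a6 is also a transcript of thalamic neurons, whose axons end in cortex. Of 6 thalamic genes, 5 were tested, 0 were called lower and 1 was called higher, read against 3.17% and 3.98% of all genes tested. The called gene was Lef1, a Wnt effector that brain endothelial cells also express, at a log2 fold change of 0.73 (standard error 0.26). Gbx2 was at 0 in 6 of the libraries and under 10 normalized counts in the others. Of 8 mRNAs known from dendrites, 0 were called in either direction and the median log2 fold change was -0.27. Among the 3 with the highest normalized counts, the postsynaptic scaffold gene Dlgap3 was at -0.24 (standard error 0.22), the activity-regulated gene Arc at -0.04 (standard error 0.39) and Ddn, which encodes dendrin, at -0.56 (standard error 0.22). All mutant libraries of Ddn (3312 to 4595) were below all controls (4601 to 7873), which was so of 2.17% of all genes tested. Ddn missed the call on its fold of 1.48, with an unadjusted limma p of 0.0285 and an adjusted p of 0.58.

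Likeness to Slc17a7 was measured as Pearson's r of log2 values over the 8 libraries, which share their scaling and the differences described above, among 19136 genes with a mean of at least 100. The 5 most alike genes were D130017N08Rik (r = 0.97), Ntng1 (0.93), Gpr27 (0.92), Tmem28 (0.92) and Dleu2 (0.91). No member was among them. Camk2a was at rank 102 with r = 0.75, Neurod6 at rank 456 with r = 0.61, and Rorb had r = -0.61. For Neurod6 the 5 most alike genes were Cluap1 (r = 0.97), Adra1d (0.96), Tmem259 (0.96), Sap30bp (0.96) and 2610301B20Rik (0.96), and of the members Nrgn came nearest with r = 0.81 at rank 442. The 9 transcripts did not rise and fall together across libraries. With 8 libraries and so many genes, such values are a description only.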

How the data were processed

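The unit analysed is a signal, the normalized count of each gene and library as deposited by the authors. They aligned paired-end reads from SMARTer Ultra Low libraries with STAR 2.4.0 to mm10, took as a gene's count the reads on its constitutive regions in Mouse Fast DB, and divided them by a DESeq2 size factor per library. Groups came from the labels, and all 8 columns were matched by name. Whole reads were recovered by dividing by the smallest value above 0 (100% whole within 0.01) and used for shares, levels per length and count tests. Values depend on the size factors, so other scalings were tried.

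A gene entered the test when either genotype had a mean of 10 or more, and limma 3.58.1 (trend, no covariate) was run in R 4.3.3 on log2(value + 1). A gene was called at 1.5-fold or more with p no higher than 0.05 before adjustment. edgeR 4.0.16 and DESeq2 1.42.0 were alternatives. The procedure was tested on simulated data. Levels per length used the longest GENCODE transcript, matched by symbol for 23602 genes. The genes named are the members, Erbb4, Rpl22, Gad1 and Lhx6, of each list the called genes or otherwise up to 3 of the most abundant, and the 5 most like Slc17a7 and Neurod6. Sst, Slc32a1, Gbx2, Mbp, Cldn5, Sh2b3 and genes drawn only in the fold change plot fall outside this rule and were added after their values were seen. Of the lists, 2 genes that the counts include are not reported here by name. Members and lists were chosen with earlier results of these data known. No label assigns libraries to sequencing batches, so no within-batch value was computed.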

Additional observations from a re-analysis of the deposited data

How the results depend on the processing

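Of the 9 members, 1 (Neurod6) was called lower. The count was 0 after scaling to library totals, with library weights, with the replicate block and at an adjusted p under 0.05 by limma, and it was 2 with edgeR, DESeq2 (both Neurod6 and Nrgn) and a marker covariate chosen after seeing the data (Rorb higher, Neurod6 lower). Leaving out 1 library gave 0 to 2 members, 0 without control replicate 3 and 2 without control replicate 4. Centring on the interneuron markers called Rorb in place of Neurod6. Over all genes, 2229 calls became 4297 when centred, 3630 with library weights, 14 at an adjusted p under 0.05, 1685 with a mean of at least 100, and 1194 (without mutant replicate 4) to 3767 (without control replicate 5) with 1 library left out. The call of Neurod6 held in 16 of 21 alternatives, with adjusted p of 0.26 to 0.85 among them, and the cause of the changes was not tested.

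Signs of log2 fold changes turned as follows. Slc17a7 was at 0.16 after quantile normalization, 0.039 after scaling to totals and 0.74 when centred, and Camk2a was at 0.029 after scaling to totals and 0.73 when centred. Centring also put Slc17a6 at 0.58, Neurod6 at 0.18, Neurod2 at 0.56, Nrgn at 0.21, Rpl22 at 0.42, Lhx6 at 0.19, Cplx3 at 0.048, Mog at 0.15 and Mag at 0.23. With the same centring the median of all genes was 0.94. Cux2 was at -0.0092 with library weights, -0.0075 with the replicate block and -0.028 with the marker covariate, and ran from -0.14 to 0.60 with 1 library left out, the lowest without control replicate 1. The log2 ratio of Slc17a7 to Gad1 differed between genotypes by 0.55 to 1.39, and that of the members to the markers by 0.34 to 1.28, with 1 library left out.

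Replicate numbers were shared by 3 pairs, whose deviations correlated at 0.10, 0.10 and 0.08. Pairs with unlike numbers ran from -0.12 to 0.085, so some exceeded the lowest pair with a shared number. Controls 1 and 3 correlated positively with mutants 2 and 3, as did controls 4 and 5 with mutants 4 and 5. All other pairs correlated negatively, and the source of this pattern was not tested. No label pairs the libraries or gives their sequencing batch, so the replicate block is an alternative only. It called 3164 genes in place of 2229 and put Neurod6 at -0.62 with an unadjusted limma p of 0.0511. Depth was 51010687 reads or more per library, and its part in the spread was not tested.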

Other observations

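Markers of other cell types were detected in the pulldown, and no input or Cre-negative library was analysed here to tell where their reads came from. Counts of called genes in each list below are read against 3.17% lower and 3.98% higher of all genes tested. Of 6 oligodendrocyte markers, 2 were called lower and 0 higher in mutants, Mog (log2 fold change -0.73, standard error 0.31) and Mag (-0.66, standard error 0.25), which are myelin proteins. Both turned above 0 when libraries were centred on the interneuron markers, where the median of all genes was 0.94. Each call held in 10 of 21 alternatives and was lost, among others, with scaling to library totals, library weights and the replicate block, and without control replicate 1 (Mog -0.50, unadjusted limma p of 0.112, and Mag -0.47, p of 0.0532), the library with the highest oligodendrocyte sum, or control replicate 3 (-0.59 and -0.57). Of 5 endothelial and mural markers, 0 were called lower and 1 higher, the vascular growth factor receptor Flt1 (0.69, standard error 0.25), a call that held in 16 of 21 alternatives and was lost without control replicate 1 (0.52), mutant replicate 4 (0.61) or mutant replicate 5 (0.64). No call was made by limma among 7 astrocyte, 6 microglia, 4 oligodendrocyte precursor and 8 CGE-derived interneuron markers, with median log2 fold changes of -0.11, -0.37, -0.03 and -0.54. Per length, in controls, Mbp was at 887 ± 456 RPKM and Cldn5 at 680 ± 215, above Slc17a7 at 504 ± 89.5, the astrocyte gene Aldoc was at 449 ± 152, and the microglial gene Csf1r was at 25.6 ± 1.89 (SD, n = 4). Rpl22, the tagged gene, was at a log2 fold change of -0.47 (standard error 0.32) and Lhx6 at -0.69 (standard error 0.32), neither called.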
